A study of Mus musculus with 12 samples.

Results

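The 9 genes described here encode the receptor chains of the gp130 cytokine family and the Janus kinases that these chains carry. They are Il6st, Lifr, Osmr, Il6ra, Il11ra1, Cntfr, Jak1, Jak2 and Tyk2, named by symbol whatever their values, out of 22915 genes in the table. RNA was sequenced from primary cardiomyocytes of adult male C57/Bl6 mice, 12 weeks of age, cultured in normoxia and exposed for 24 h to PBS, murine LIF (mLIF), murine OSM (mOSM) or a human-like OSM (hlOSM). There were 3 libraries per condition and 12 in all. Each cytokine was given at 25 ng/mL per the labels, while the study's methods state a slightly lower dose, and PBS was given in the same volume. In mouse cells mLIF acts through LIFR and mOSM through OSMR, and hlOSM is murine OSM with the AB loop of the human protein, which lets it act through both. Neither the labels nor the methods state whether libraries of the same replicate number came from the same preparation of cells.

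Cytokines of this family signal by bringing receptor chains together at the cell surface. The shared chain gp130, encoded by Il6st, pairs with LIFR for LIF and with OSMR for murine OSM, whereas IL-6 and IL-11 first bind a chain of their own, IL-6Rα or IL-11Rα, and then engage gp130. CNTF uses CNTFRα together with gp130 and LIFR. None of the signaling chains has a kinase domain, and the Janus kinases JAK1, JAK2 and TYK2 bound to their cytoplasmic tails phosphorylate the receptors and the STAT proteins that dock there, STAT3 above all. In the heart this pathway is known for its part in cardiomyocyte survival and growth and in the loss of the sarcomeric state under OSM.

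Values are normalized counts, that is, read counts per gene that the authors scaled between libraries and rounded to whole numbers. They are not divided by gene length, and the sum over all genes was between 2745748 and 2911891 in a library. Sequencing depth is not given by these sums, so that no counting error could be attached to single values, and the spread between the 3 libraries of a condition is the error used throughout. Of the 9 genes, 8 passed the filter, which asked for 10 or more in 3 or more libraries, and were tested with limma among 13184 genes. Differences are log2 fold changes of (normalized count + 1), which understate changes of low genes, and a gene was called with a Benjamini-Hochberg adjusted p under 0.05. The cardiomyocyte markers Myh6, Tnnt2, Tnni3, Actc1, Ryr2, Pln, Myl2 and Ttn were present in every library, with a summed normalized count of 47572 to 49402 in PBS. Markers of fibroblasts, endothelial cells and smooth muscle and pericytes were also present in PBS, at sums of 2296 to 2526, 1167 to 1232 and 1862 to 2218. Leukocyte markers summed to 144 to 147. Most of the cardiomyocyte sum was Ttn, with a mean of 32924 in PBS. Since counts are not divided by length, these sums do not give the proportions of cells. In RNA from such a culture, fewer cells of a type and less RNA per cell cannot be told apart.

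Osmr was the receptor gene that responded to all 3 cytokines, and Jak2 and Il6st were raised with mOSM and hlOSM but did not pass the test with mLIF. Il6ra was lowered with mOSM and hlOSM, but the call with mOSM was lost with the replicate number as a block (adjusted p = 0.0683 by limma). Lifr, Jak1, Il11ra1 and Tyk2 passed the test in none of the comparisons, and Cntfr was near 0 in every library. Over the 4 conditions together, the limma F test called Osmr (adjusted p = 4.72e-08), Jak2 (adjusted p = 1.28e-07), Il6st (adjusted p = 0.00418) and Il6ra (adjusted p = 0.00988), which makes 4 of the 8 members tested, where it called 34.2% of all genes tested.

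**Figure D1:**
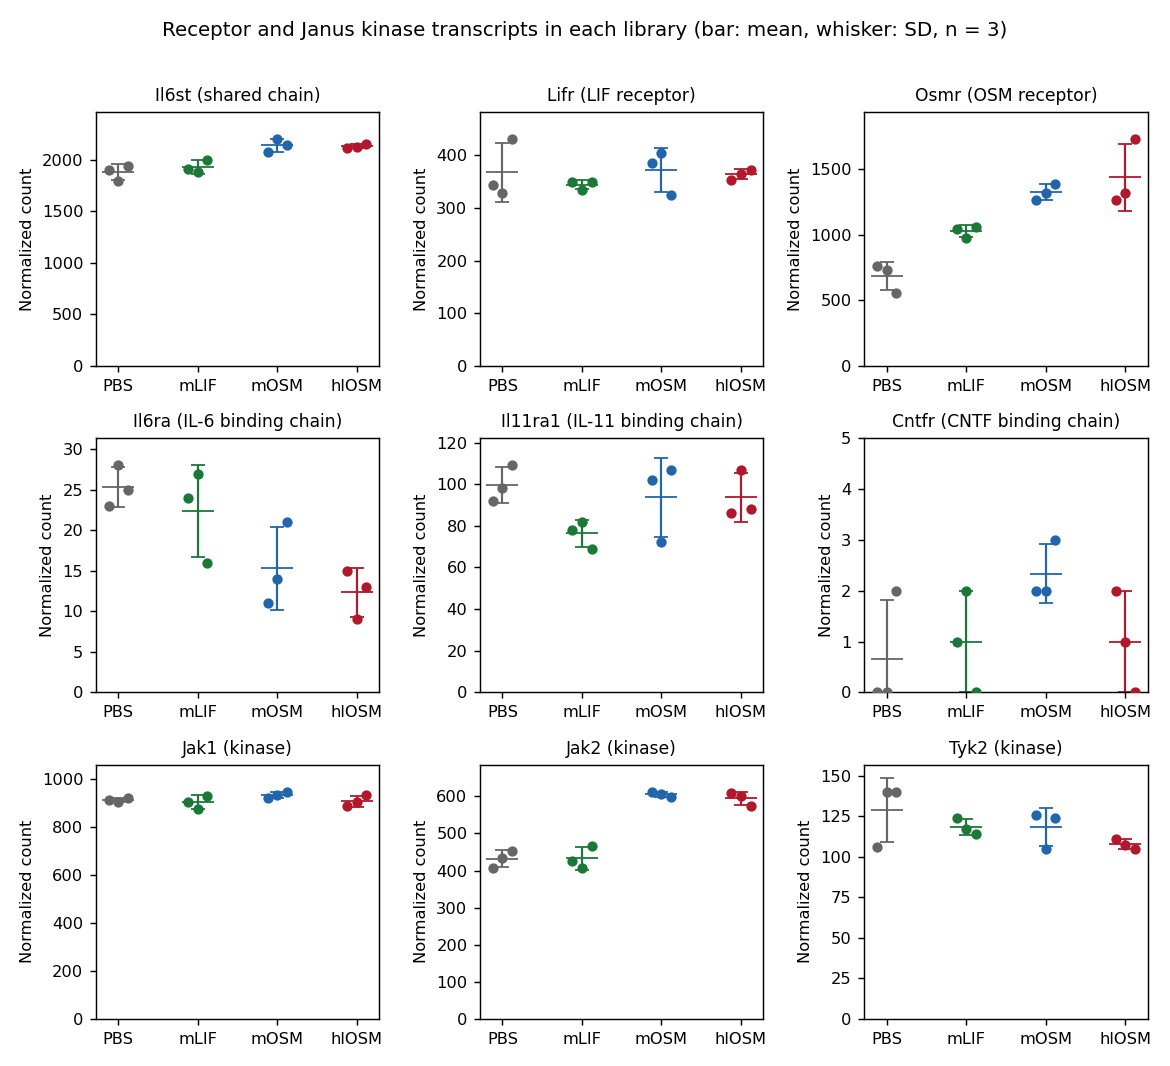
Normalized count (vertical axis, from 0, on its own scale for each gene) of the 9 genes in the 12 libraries, with PBS, mLIF, mOSM and hlOSM on the horizontal axis. Points are libraries, horizontal bars are means and whiskers are SD (n = 3). Osmr stood above PBS in all 9 cytokine libraries, Jak2 and Il6st in the mOSM and hlOSM libraries, and Cntfr did not exceed 3 in any library.

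Compared per exonic length in PBS, the shared chain was the most abundant of the 9 transcripts. Il6st had 169 ± 7.1 normalized counts per exonic kb (SD, n = 3) and was followed by Jak1 with 126 ± 1.2, Jak2 with 85.8 ± 4.6 and Osmr with 56.6 ± 9.1. Lifr came next with 34.1 ± 5.1, then Il11ra1 with 22.3 ± 1.9 and Tyk2 with 18.7 ± 2.9. The ligand-binding chain of IL-6 was far lower on this scale, with 2.93 ± 0.29 for Il6ra, and Cntfr had 0.240 ± 0.42. In PBS the ranges of neighbours in this order did not overlap. With hlOSM, Osmr had risen to 118.8 ± 21 and its range overlapped those of Jak1 (125.4 ± 3.2) and Jak2 (118.2 ± 3.6), while Lifr was at 33.7 ± 0.88. The order depends in part on the length used, since these genes differ in their noncoding exons. Per coding kb in PBS, Osmr (235 ± 38) stood above Jak2 (127 ± 6.8), and the ranges of Jak1 and Osmr and those of Jak2 and Lifr overlapped. Il6ra (18.4 ± 1.8) lay closer to Tyk2 (35.5 ± 5.4) on that scale. Per coding kb with each cytokine, Osmr stood above Jak1 and Jak2 without overlap. With hlOSM these values were 494 ± 88 for Osmr, 262 ± 6.7 for Jak1 and 175 ± 5.4 for Jak2.

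**Figure D2:**
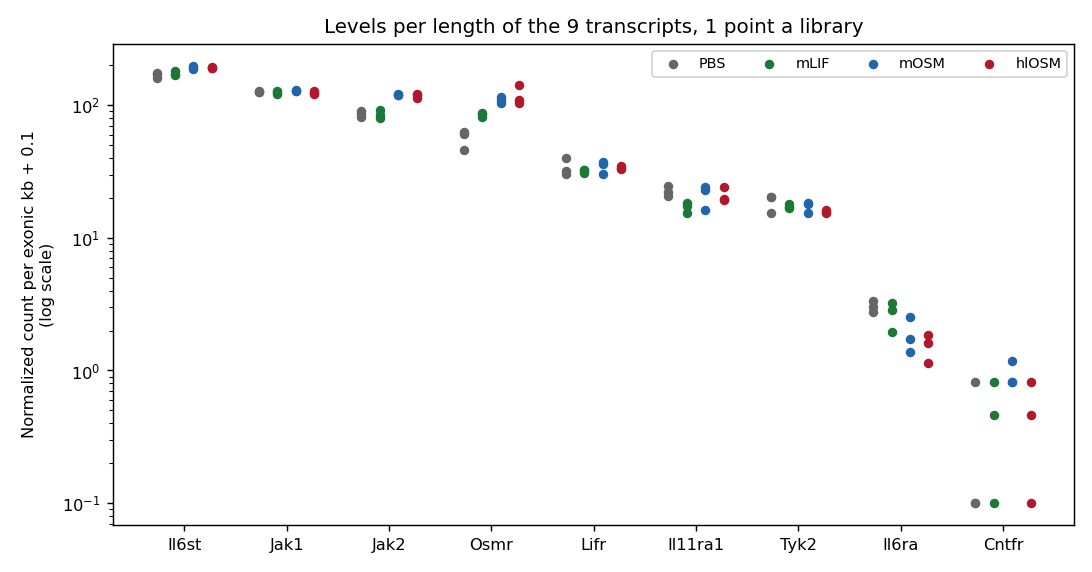
Normalized count per exonic kb with 0.1 added (vertical axis, log scale) for the 9 genes, ordered by their mean in PBS (horizontal axis), with 1 point per library colored by condition. Il6st was highest in every condition, Osmr moved from 56.6 per exonic kb in PBS to 118.8 with hlOSM, and Cntfr was lowest.

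To ask which members respond to activation of LIFR alone, mLIF was compared with PBS. Osmr was the only one of the 8 members tested that was called, and it rose. Its normalized counts were 762, 735 and 560 in PBS and 1047, 980 and 1061 under mLIF. All 3 mLIF libraries lay above all 3 PBS libraries, and the third PBS library was the lowest of the 12. The difference was 0.60 on the log2 scale, a 1.51-fold rise (SE 0.099, adjusted p = 0.000576 by limma), against a background of 5.47% of all tested genes raised and 4.44% lowered. Osmr, which encodes the signaling chain of the murine OSM receptor, lies on the minus strand of chromosome 15 (chr15:6813577-6874969, mm10, ENSMUSG00000022146).

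The receptor that mLIF itself engages did not pass the test. Lifr lies on the same chromosome and on the other strand (chr15:7090614-7197489, ENSMUSG00000054263), and its normalized counts were 344, 328 and 431 in PBS and 349, 334 and 350 under mLIF. The mLIF values fell inside the range of PBS. The log2 difference was −0.08 with a 95% interval of −0.26 to 0.09 (adjusted p = 0.575 by limma). Il6st had 1904, 1791 and 1944 in PBS and 1908, 1877 and 2001 under mLIF, again overlapping, with a log2 difference of 0.04 and a 95% interval of −0.06 to 0.14. Jak2 had a log2 difference of 0.00 with a 95% interval of −0.12 to 0.13, and Jak1 one of −0.01 with an interval of −0.11 to 0.09.

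Il11ra1, the ligand-binding chain for IL-11 (chr4:41699989-41769474, ENSMUSG00000073889), was the member nearest to a fall with mLIF. Its normalized counts were 92, 98 and 109 in PBS and 78, 82 and 69 under mLIF, without overlap. The log2 difference was −0.38 (SE 0.13, adjusted p = 0.0668 by limma) and did not pass the threshold. It passed when the 6 libraries compared were fitted alone (adjusted p = 0.0286) and when the second mOSM library was left out (adjusted p = 0.0269). The mouse genome holds near-identical copies of this gene, and only reads lying on a single gene were counted, so that its level is uncertain; the copy Il11ra2 was not analysed here.

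With OSMR as the receptor, the response took in the shared chain and a kinase. Against PBS, mOSM raised 3 of the 8 members tested and lowered 1, where 15.4% of all genes tested were raised and 15.8% lowered. Under hlOSM the counts were again 3 raised and 1 lowered, where 18.2% of all genes tested were raised and 19.8% lowered. The members were Osmr, Jak2 and Il6st, which rose, and Il6ra, which fell. The comparisons of the 3 cytokines with PBS share the same 3 PBS libraries, so that their values are given side by side and not as independent results.

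Osmr had normalized counts of 1264, 1323 and 1391 under mOSM and of 1264, 1321 and 1732 under hlOSM. All 6 libraries lay above every PBS and mLIF library, and the third hlOSM library stood above the rest. Against PBS the log2 difference was 0.96 with mOSM (1.95-fold, SE 0.099, adjusted p = 1.24e-07) and 1.07 with hlOSM (2.10-fold, SE 0.099, adjusted p = 1.87e-08). Leaving out any of the 12 libraries in turn left these between 0.82 and 1.05 and between 0.93 and 1.15, all called.

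Jak2, the kinase that many type I cytokine receptors use, lies on the plus strand of chromosome 19 (chr19:29251828-29313080, ENSMUSG00000024789). Its normalized counts were 408, 433 and 454 in PBS, 612, 605 and 598 under mOSM and 609, 600 and 574 under hlOSM. The 6 libraries of mOSM and hlOSM lay above all 6 libraries of PBS and mLIF. The log2 difference from PBS was 0.49 with mOSM (1.40-fold, SE 0.060, adjusted p = 1.52e-06) and 0.46 with hlOSM (1.38-fold, SE 0.060, adjusted p = 2.40e-06).

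Il6st, the gene of gp130 (chr13:112464070-112510086, plus strand, ENSMUSG00000021756), rose by less. It had 2079, 2202 and 2139 normalized counts with mOSM and 2112, 2128 and 2152 under hlOSM, above all libraries of PBS and mLIF. The log2 difference from PBS was 0.19 with mOSM (1.14-fold, SE 0.048, adjusted p = 0.00450) and 0.18 with hlOSM (1.13-fold, SE 0.048, adjusted p = 0.00471). In normalized counts, its mean went from 1880 ± 79 (SD, n = 3) in PBS to 2140 ± 62 with mOSM, against 432 ± 23 and 605 ± 7.0 for Jak2.

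The windows upstream of Jak2 and Il6st are shown because these are the members that rose with mOSM and hlOSM and whose 250 bases before the RefSeq start site lie outside annotated exons. They are from RefSeq on GRCm38.p6 (mm10) and on the plus strand, chr19:29251553-29251802 for Jak2 and chr13:112463820-112464069 for Il6st. Capitals mark matches to a GC box, GGGCGG or its complement CCGCCC.
Jak2: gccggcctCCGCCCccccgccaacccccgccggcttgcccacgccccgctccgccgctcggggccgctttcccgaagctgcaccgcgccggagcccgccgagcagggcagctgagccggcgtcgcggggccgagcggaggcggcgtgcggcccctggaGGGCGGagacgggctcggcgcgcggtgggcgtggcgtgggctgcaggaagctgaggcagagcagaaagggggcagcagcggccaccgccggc
Il6st: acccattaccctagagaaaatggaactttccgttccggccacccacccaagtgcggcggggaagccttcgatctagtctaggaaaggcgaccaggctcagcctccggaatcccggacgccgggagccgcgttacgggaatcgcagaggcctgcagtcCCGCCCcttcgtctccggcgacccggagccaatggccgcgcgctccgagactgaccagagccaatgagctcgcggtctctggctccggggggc
Jak2 has 2 such matches and Il6st 1, and 80.8% and 66.0% of the bases are G or C, where the median over all windows is 52.4%. A GC box stood in 32.7% of the 32817 windows of all genes and in 10 of the 16 windows of the 9 members. Several of the 16 belong to Cntfr and overlap each other, so that the same match can be counted again. By gene, 8 of the 9 members had a match. The share of all genes with a match was not computed, and a gene with several windows has more chances of a match. The 32.7% of windows is therefore no background for the count by gene. The STAT motif TTCNNNGAA, searched on both strands, stood in 7.01% of all windows, and the AP-1 motif TGANTCA in 6.75%. Neither was in any of the 16 member windows, which are few against such shares. The windows of Osmr, Lifr, Il11ra1 and Cntfr lie inside the annotated genes, so that the bases before the annotated starts of these genes were not searched. No match in 250 bases says only that these letters are not there.

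Il6ra, the chain that binds IL-6, was the member that fell. It lies on the minus strand of chromosome 3 (chr3:89864059-89913196, ENSMUSG00000027947), and a gene on the other strand, Gm42809, overlaps 2.80% of its exonic bases. Its normalized counts were low throughout, at 23, 28 and 25 in PBS, 24, 27 and 16 under mLIF, 11, 14 and 21 under mOSM and 15, 9 and 13 under hlOSM. Every mOSM and hlOSM library lay below every PBS library, while the mLIF libraries overlapped both PBS and mOSM. The log2 difference from PBS was −0.73 with mOSM (SE 0.25, adjusted p = 0.0317) and −1.005 with hlOSM (SE 0.25, adjusted p = 0.00331). When the replicate number entered as a block, the first was lost (adjusted p = 0.0683) and the second was kept (adjusted p = 0.00995). The call with mOSM was also lost without the second or the third PBS library (adjusted p = 0.101 and 0.0665) and without the first or the second mOSM library (adjusted p = 0.161 and 0.0836).

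Markers of other cells moved with these conditions. The summed normalized counts of the 8 endothelial markers were 1167 to 1232 in PBS, 1160 to 1219 under mLIF, 1421 to 1635 under mOSM and 1425 to 1543 under hlOSM, and 5 of the 8 were called raised with mOSM and 5 with hlOSM. Cdh5, which encodes VE-cadherin, had the largest rise of them, with a log2 difference of 0.65 with mOSM and 0.72 with hlOSM. The 5 leukocyte markers tested summed, with the others in the table, to 144 to 147 in PBS, 140 to 162 under mLIF, 197 to 230 under mOSM and 183 to 258 under hlOSM. Among them only Cd68 was called raised, with each cytokine, from 53.7 ± 12 in PBS to 125 ± 18 with mOSM and 132 ± 33 with hlOSM. The rise of the sum was that of Cd68 alone, and the other leukocyte markers together did not rise. Itgam was lowered with mOSM (log2 difference −1.13, adjusted p = 0.0324 by limma, and 0.0622 with the replicate block). Fibroblast markers summed to 2296 to 2526 in PBS, 2110 to 2251 under mLIF, 2459 to 2885 under mOSM and 2307 to 2540 under hlOSM, where 3 of the 8 were raised and 5 lowered. The rise of Lum with hlOSM was lost with the replicate block (adjusted p = 0.0748 by limma). Smooth muscle and pericyte markers fell to 1354 to 1440 with mOSM and 1209 to 1299 with hlOSM, from 1862 to 2218 in PBS, with 1694 to 1750 under mLIF, and 6 and 7 of the 8 were called lowered with mOSM and hlOSM. Cardiomyocyte markers fell as well, from 47572 to 49402 in PBS to 41237 to 43056 under mLIF, 33380 to 37353 under mOSM and 34186 to 36611 under hlOSM, and 6, 7 and 7 of the 8 were called lowered (4, 7 and 7 with the replicate block, where Ryr2 and Pln were lost for mLIF). Ttn made up most of the cardiomyocyte sum and of its fall, with means of 32924 in PBS and 22907 with mOSM. The part of these marker shifts in the changes of Osmr, Jak2, Il6st and Il6ra was not tested.

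**Figure D3:**
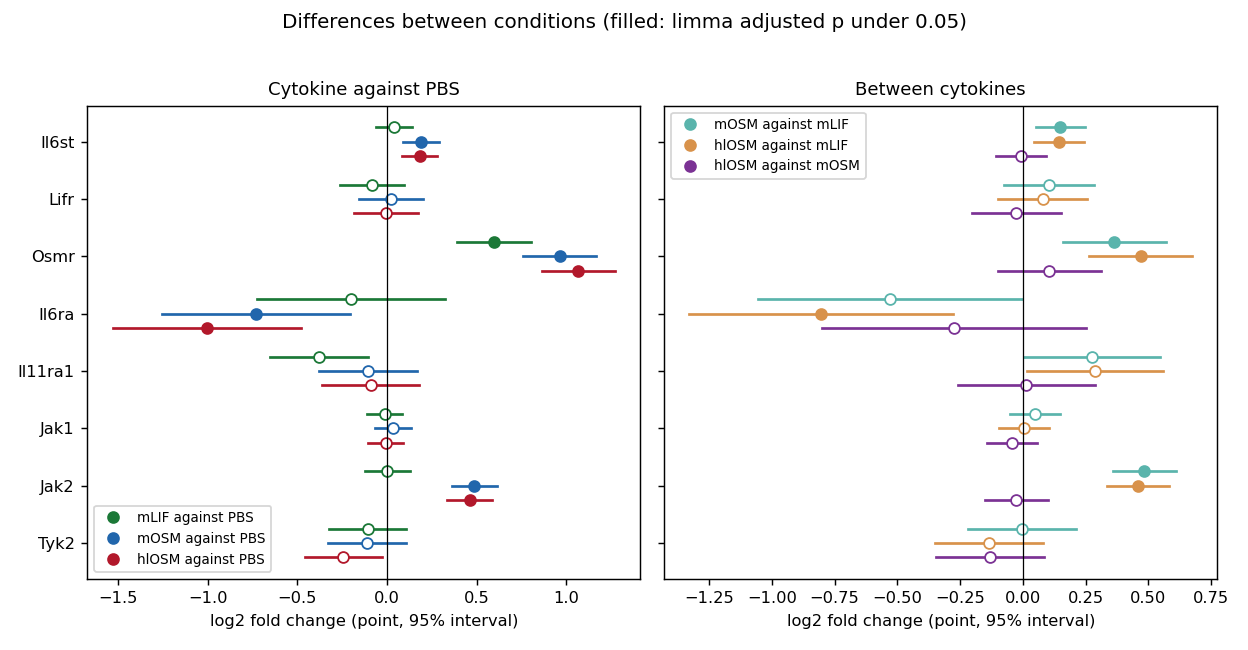
log2 fold change (horizontal axis) of the 8 members tested, with the 95% interval from limma as a line, for each cytokine against PBS (left) and between cytokines (right); filled points have an adjusted p under 0.05. Osmr, Jak2 and Il6st lay to the right of 0 with mOSM and hlOSM, Lifr and Jak1 straddled 0 in every comparison, and the points for hlOSM against mOSM were all open.

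The remaining members gave intervals that bound how far they can have moved. Lifr had 385, 405 and 325 normalized counts with mOSM and 354, 364 and 373 under hlOSM. Its log2 difference from PBS was 0.02 with mOSM (95% interval −0.16 to 0.20) and −0.01 with hlOSM (95% interval −0.18 to 0.17), and both sets of libraries overlapped PBS. Jak1, the main kinase of gp130 (chr4:101152367-101265282, minus strand, ENSMUSG00000028530), was the steadiest, with 910, 903 and 920 in PBS, 905, 872 and 930 under mLIF, 920, 933 and 945 under mOSM and 885, 902 and 931 under hlOSM. Its 95% intervals against PBS lay between −0.11 and 0.13 on the log2 scale over the 3 cytokines.

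Tyk2, the third kinase (chr9:21104068-21131243, minus strand, ENSMUSG00000032175), had 106, 140 and 140 normalized counts in PBS, 124, 117 and 114 under mLIF, 126, 105 and 124 under mOSM and 111, 107 and 105 under hlOSM. The first PBS library lay inside the range of hlOSM. The log2 difference with hlOSM was −0.24 (95% interval −0.46 to −0.03, adjusted p = 0.0704) and was called without that PBS library (−0.38, adjusted p = 0.00618). An antisense gene, 1700084C06Rik, overlaps 8.07% of the exonic bases of Tyk2.

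Il11ra1 had 102, 72 and 107 normalized counts with mOSM and 86, 107 and 88 under hlOSM, with adjusted p = 0.581 and 0.615 against PBS. Against mLIF it was higher with mOSM by a log2 difference of 0.27 (adjusted p = 0.201), and by 0.45 without the second mOSM library, where it was called (adjusted p = 0.0182). Cntfr (chr4:41657498-41697089, minus strand, ENSMUSG00000028444), the ligand-binding chain for CNTF, was listed at 0, 0 and 2 in PBS, 1, 2 and 0 under mLIF, 2, 2 and 3 under mOSM and 2, 1 and 0 under hlOSM. It was left out of the tests by the filter, and without the filter its smallest adjusted p over the 6 comparisons was 0.132.

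The cytokines, which differ in the receptors they use, were also compared with each other. Against mLIF, mOSM raised 3 members, where 6.05% of all genes tested were raised and 5.76% lowered, and hlOSM raised 3 and lowered 1, where 7.42% were raised and 9.22% lowered. Jak2 was the clearest, with a log2 difference of 0.49 for mOSM minus mLIF (adjusted p = 5.17e-06) and 0.46 for hlOSM minus mLIF (adjusted p = 8.17e-06). It was called in both comparisons with each library left out in turn. Osmr was also higher than with mLIF, by 0.36 with mOSM (adjusted p = 0.0159) and 0.47 with hlOSM (adjusted p = 0.00175). The call with mOSM was lost without the second mLIF library (adjusted p = 0.0782) or the third mOSM library (adjusted p = 0.0713).

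Il6st was higher than with mLIF by 0.15 with mOSM (adjusted p = 0.0438) and 0.14 with hlOSM (adjusted p = 0.0421). Both calls were near the threshold and were lost with the replicate number as a block (adjusted p = 0.0803 and 0.0763). Leaving out a library ended the call with mOSM for the first PBS library (adjusted p = 0.0622), the first and second mLIF libraries (0.137 and 0.195), the second mOSM library (0.142) and the second hlOSM library (0.0642). The call with hlOSM was ended by the first PBS library (adjusted p = 0.0603), the first and second mLIF libraries (0.128 and 0.184) and each of the 3 hlOSM libraries (0.0765, 0.104 and 0.0848). Il6ra was lower with hlOSM than with mLIF by a log2 difference of −0.80 (adjusted p = 0.0317), and this call was lost under the block (adjusted p = 0.0755), without the first or second mLIF library (0.113 and 0.158) and without the second or the third hlOSM library (0.151 and 0.0525).

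Engagement of LIFR beside OSMR was addressed by hlOSM against mOSM. Here limma called 0 of the 8 members, also 0 at an unadjusted p under 0.05, and 0.106% of all genes tested in either direction. The 95% interval of the difference was −0.10 to 0.31 for Osmr, −0.15 to 0.10 for Jak2, −0.11 to 0.09 for Il6st and −0.80 to 0.25 for Il6ra on the log2 scale. These intervals bound, but do not exclude, a difference between the cytokines. Whether the step from mOSM to hlOSM differed from the step from PBS to mLIF was tested as an interaction, for which limma called 0 members (2 at an unadjusted p under 0.05, Osmr and Il11ra1) and 0.167% of all genes tested. Osmr came nearest: the step from PBS to mLIF was 0.60 and the step from mOSM to hlOSM 0.10, a difference of −0.49 (95% interval −0.78 to −0.20, adjusted p = 0.154). Without the third hlOSM library, in which Osmr was highest, the difference was −0.63 and was called (adjusted p = 0.0127). No other library left out gave a call. Over the 12 such fits the difference lay between −0.63 and −0.35, with an adjusted p of up to 0.375 by limma.

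The ratio of the receptor chains within a library does not depend on a scaling factor shared by all genes of that library. It does depend on any adjustment made gene by gene, such as removal of an effect of the replicate number. After such an adjustment the libraries would not be independent, as the exact test below assumes. Per exonic kb, Osmr to Lifr was 1.71 ± 0.48 (SD, n = 3) in PBS, 2.66 ± 0.044 under mLIF, 3.21 ± 0.52 under mOSM and 3.51 ± 0.54 under hlOSM. The PBS libraries were at 1.97, 1.99 and 1.16, all below the lowest cytokine library at 2.61. The log2 ratio was higher than in PBS by 0.68, 0.94 and 1.07, each with p = 0.1 in a two-sided exact permutation test of 3 libraries against 3, the smallest p this design allows. Without the third PBS library, which had the lowest Osmr and the highest Lifr of the 12, these differences were 0.42, 0.68 and 0.81. Osmr to Il6st gave log2 differences of 0.56, 0.78 and 0.89, also with exact p = 0.1 each. Lifr to Il6st gave −0.12, −0.17 and −0.19, with exact p = 0.2, 0.6 and 0.1. Over this family of 9 tests no p could pass a threshold of 0.05, adjusted or not.

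The kinases gave a ratio of the same kind, chosen after their values were seen and therefore given without a test. Jak2 to Jak1 per exonic kb was 0.681 ± 0.033 (SD, n = 3) in PBS and 0.688 ± 0.028 with mLIF. It was 0.932 ± 0.023 with mOSM and 0.943 ± 0.053 with hlOSM. The 6 libraries of mOSM and hlOSM lay above the 6 of PBS and mLIF.

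**Figure D4:**
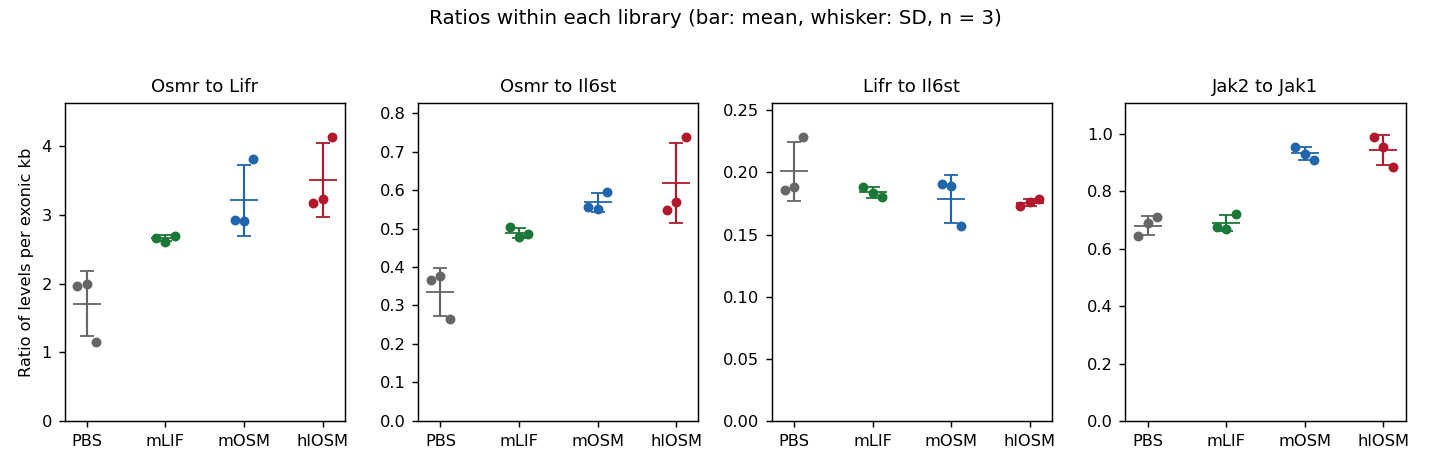
Ratio of levels per exonic kb within each library (vertical axes, from 0) for Osmr to Lifr, Osmr to Il6st, Lifr to Il6st and Jak2 to Jak1, by condition (horizontal axes). Points are libraries, bars are means and whiskers are SD (n = 3). Osmr to Lifr rose from a mean of 1.71 in PBS to 3.51 with hlOSM, and Jak2 to Jak1 separated mOSM and hlOSM from PBS and mLIF.

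The genes whose log2 values ran most like those of the called members over the 12 libraries were searched among the tested genes whose mean was 50 or more. They were Cd24a (Pearson r = 0.994), Cnksr1 (0.993) and Stat3 (0.991) for Osmr. For Jak2 they were Hivep3 (0.980), Sod3 (0.978) and Bmp1 (0.976), for Il6st Sema7a (0.977), Rasip1 (0.961) and Bcat1 (0.955), and for Il6ra Jpt1 (0.943), Ncapd3 (0.928) and Mlkl (0.917). The libraries share their conditions, so that these values describe a common response to condition and spread within it, without a test.

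Around the receptors and kinases, the other genes of the pathway were counted by role, to be read against the shares over all genes tested: mLIF raised 5.47% and lowered 4.44%, mOSM 15.4% and 15.8%, and hlOSM 18.2% and 19.8%. Of 9 ligands of the family, 5 were tested. With mLIF limma called 0 of them, also 0 at an unadjusted p under 0.05, with a median log2 difference of −0.21 against 0.00 over all genes. With mOSM 4 rose and 1 fell, and with hlOSM 4 rose, with medians of 1.24 and 0.93 against 0.00 and −0.01 over all genes. Il6, the ligand of the chain encoded by Il6ra, rose from 11.3 ± 3.5 normalized counts (SD, n = 3) in PBS to 86.7 ± 26 with hlOSM (log2 difference 2.82, adjusted p = 3.13e-09 by limma). Clcf1, a ligand of the CNTF receptor, rose from 47.3 ± 3.8 to 130 ± 23 (log2 difference 1.43), and Lif from 79.0 ± 12 to 114 ± 16 (log2 difference 0.53). The gene that fell with mOSM was Ctf1, which encodes cardiotrophin-1, at a log2 difference of −0.66 (adjusted p = 0.0275; 0.0870 with the replicate number as a block).

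Among 14 tested receptors outside the family that use Janus kinases, 1 rose and 1 fell with mLIF, 3 rose and 2 fell with mOSM, and 3 rose and 3 fell with hlOSM. The shares with hlOSM, 21.4% raised and 21.4% lowered, are near those over all genes, and nothing is read from them about the list. Il4ra, the IL-4 receptor chain, rose from 157 ± 12 to 541 ± 5.3 normalized counts with hlOSM (log2 difference 1.78), and Il13ra1, which pairs with it, from 649 ± 18 to 828 ± 55 (log2 difference 0.35). Prlr, the prolactin receptor, fell from 161 ± 31 to 39.0 ± 9.6 (log2 difference −2.03), and Ghr, the growth hormone receptor, from 1086 ± 74 to 907 ± 59 (log2 difference −0.26). Of the 4 tested close relatives of the gp130 receptors, limma called 0 with mLIF, 1 lowered with mOSM (Lepr, the leptin receptor, which did not exceed 18 in any library) and 0 with hlOSM. At an unadjusted p under 0.05 the counts with mLIF and hlOSM were 0 and 1.

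Of 23 tested genes listed as signal transducers, a list that also holds the kinase gene Jak3, 3 rose with mLIF, 8 rose and 4 fell with mOSM, and 8 rose and 3 fell with hlOSM. These are shares of 13.0% raised with mLIF, 34.8% raised and 17.4% lowered with mOSM, and 34.8% and 13.0% with hlOSM. Stat5a rose with hlOSM by a log2 difference of 0.75 and the docking protein gene Gab2 by 0.52, while Gab1, which codes for a related docking protein, fell by 0.56 on the log2 scale. Stat3 had log2 differences of 0.19 (mLIF), 0.35 (mOSM) and 0.35 (hlOSM) and was called with each cytokine, although with mLIF the call (adjusted p = 0.0280) was lost with the replicate block (adjusted p = 0.0528). Jak3, the fourth Janus kinase gene, was low, at 18.7 ± 2.5 normalized counts in PBS, and rose with hlOSM by a log2 difference of 1.30. It is among the raised genes of this list with each cytokine. Stat3 and Jak3 were named outside the rule for this list, after their values were seen.

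Of 19 tested brakes of the pathway, 2 rose with mLIF, 4 rose and 1 fell with mOSM, and 5 rose and 4 fell with hlOSM. The shares with hlOSM were 26.3% raised and 21.1% lowered, and those with mOSM 21.1% and 5.26%. Socs3, which binds gp130 and the kinases and ends their signal, rose from 192 ± 21 to 865 ± 53 normalized counts with hlOSM, with log2 differences of 1.00, 2.08 and 2.17 for mLIF, mOSM and hlOSM. Cblb, a ubiquitin ligase gene, rose by 1.15 with hlOSM on the log2 scale, and Cish and Socs7, further members of the SOCS family, fell by 0.27 each. Of 12 tested genes of receptor shedding and trafficking, 1 rose with mLIF, 2 rose with mOSM, and 4 rose and 1 fell with hlOSM. The gene called with mLIF was Stam (adjusted p = 0.0496), and it was lost with the replicate block (adjusted p = 0.0933). Those called with hlOSM included Adam10, a sheddase gene, which rose from 388 ± 7.2 to 458 ± 34 normalized counts with hlOSM (log2 difference 0.24), and Stam, an endosomal sorting gene, with a log2 difference of 0.33. Stam2 rose by a log2 difference of 0.19 with hlOSM, a call lost with the replicate number as a block (adjusted p = 0.0603), and Rhbdf1 fell by 0.31 on the log2 scale.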

How the data were processed

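Primary cardiomyocytes were profiled by RNA sequencing in 4 conditions with 3 libraries each, grouped by the sample titles. Per the labels and methods, the authors aligned reads to mm10 with STAR 2.7.7a, counted those on a single gene with featureCounts 1.6.5, normalized and rounded them. The deposited values are scores (normalized, rounded counts), and their normalization is not given in the sources used here. They carry no depth, so no count model was fitted.

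Here limma 3.58.1 in R 4.3.3 (lmFit, eBayes with a trend) was run on log2(value + 1) over 13184 genes with at least 10 in at least 3 libraries, with the 4 conditions in 1 fit, two-sided, Benjamini-Hochberg adjusted within a comparison, threshold 0.05. Checks on simulated data preceded it. Lengths and coordinates came from GENCODE M21, whose starts and ends match those of the table for all 9 members. Where nothing says that libraries came from separate animals, p-values measure only the spread between them, and they may be too small if a replicate-number effect was removed upstream. Members and gene lists were chosen with earlier results of these data known. Of each list, its counts and the called genes with the 2 largest and the 2 smallest differences with hlOSM and a mean of at least 50 are named, except 1 that is not reported here. Alternatives were another pseudocount, filter, scaling, threshold or fit, the replicate number as a block, and each library left out.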

Additional observations from a re-analysis of the deposited data

How the results depend on the processing

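None of the differences of members between conditions changed its direction while called, under any alternative: of the recomputed log2 fold changes, 1216 kept their side of the threshold, 45 lost a call and 12 gained 1. The recomputed ratios kept their direction, and since their exact test could not pass the threshold in any setting, its p bears on no setting. Il6ra decided most changes in the counts of members lowered, and Il6st most of those in the counts of members raised. For hlOSM against mLIF, the call of Il6st was lost in 6 of the 12 fits with a library left out. The count of members lowered went from 1 to 0 for mOSM against PBS and for hlOSM against mLIF without a filter, with a filter at 50 (which removes Il6ra), with the replicate block and at an adjusted p under 0.01. For hlOSM against PBS it was 0 with the filter at 50 and 2 with quantile normalization or a robust fit, both adding Tyk2. For mLIF against PBS, 0 became 2 with the robust fit (Il11ra1 and Tyk2) and 1 when only the libraries compared were fitted (Il11ra1), and the interaction went from 0 to 1 with the robust fit (Osmr, adjusted p = 0.0295). The robust fit also called Lifr raised with mOSM, by 0.16 against PBS and against mLIF (adjusted p = 0.0282 and 0.0340). Members raised fell from 3 to 1 for mOSM against mLIF at an adjusted p under 0.01, and a minimum of 1.5-fold left 1 (Osmr) for mOSM and for hlOSM against PBS and 0 for either against mLIF. With each library left out in turn, members lowered ranged from 1 to 2 for hlOSM against PBS. They ranged from 0 to 1 for mOSM against PBS, for hlOSM against mLIF and for mLIF against PBS. Members raised ranged from 1 to 3 for mOSM against mLIF and from 2 to 3 for hlOSM against mLIF. Calls in the interaction ranged from 0 to 1. The libraries are named beside the results, with the gained call of Il11ra1.

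Replicate numbers were checked as a pairing. Deviations of same-numbered libraries from their condition means correlated between −0.41 and −0.15 over 18 pairs, and those of other pairs between 0.00 and 0.33 over 36, and only 1.70% of within-condition variance lay between replicate numbers (25% would lie there if the number had no effect). The mean log2 value of replicate number 3 minus that of number 1 had an SD over genes of 0.0019, among 6626 genes with a mean of at least 100. Apart from a shift shared by all genes, the deposited values thus held almost no difference between these replicate numbers. The fit reported was planned without a block, and these values are no ground for leaving it out. The sources used here do not say whether an effect of the replicate number was taken out of the deposited values. The share of 1.70% lies far below the 25% that numbers without an effect would leave. Adjusted p-values without the block may therefore be too small, and those with the block are to be read beside them. If such an effect was taken out, the libraries are tied to each other, and a fit with a library left out is no independent check. With the replicate block the calls of Il6ra for mOSM against PBS (adjusted p = 0.0683) and hlOSM against mLIF (0.0755) and of Il6st for mOSM and hlOSM against mLIF (0.0803 and 0.0763) were lost, and it changed no other call of a member in these comparisons. The depth behind each value is unknown, and the low counts of Il6ra and Cntfr limit what could be detected.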
